A study of Arabidopsis thaliana with 625 samples.

Results

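Single cells were sorted from seedlings of an Arabidopsis thaliana line that marks the stomatal lineage. Of 478 such cells, 78 carried transcripts of the DNA replication machinery and lacked those of 2 genes of G2 and mitosis. A cell was counted among them when at least 2 of 6 S phase genes were expressed at 1 TPM or more (a transcript abundance scaled to the same total in every cell) and both CDKB1;1 and CYCB1;1 were below 1. The 6 genes were PCNA1 (AT1G07370), PCNA2 (AT2G29570), MCM3 (AT5G46280), MCM5 (AT2G07690), CDC6 (AT2G29680) and CYCA3;1 (AT5G43080). These cells are called gated cells here, because they were chosen by the values of these 8 genes in the same transcriptomes. They were compared, within each sort plate, with 244 TMMp cells in which all 8 genes were below 1, called comparison cells. The other TMMp cells were 62 with CDKB1;1 or CYCB1;1 and 94 with 1 gate gene. The whole series held 621 cells made with the plate-based, full-length Smart-seq2 method.

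All TMMp cells carried the transgene TMMp::TMM-YFP, in which the promoter of TMM drives TMM fused to a yellow fluorescent protein. They came from aerial tissue at 10 days after germination, in pool 1 (142 cells on plates TMM-1 and TMM-2) and pool 2 (336 cells on plates TMM3 to TMM7). No treatment was labelled, and the labels did not say whether plates of a pool shared plants, so p-values over plates measure the spread between plates, which may be technical. The other reporter line, ATML1p::YFP-RCI2A, uses an epidermal promoter and entered only for its share of gated cells. Droplet samples of the series were not analysed here.

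A stomatal lineage cell divides asymmetrically several times before a last symmetric division gives a pair of guard cells. Before each division the origins of replication are licensed, when the origin recognition complex and CDC6 load the MCM ring onto DNA. E2F factors, held in check by RBR1, switch on the genes for the MCM ring, the polymerases, the sliding clamp PCNA and nucleotide synthesis as a cell enters S phase. B-type CDKs and B-type cyclins follow in G2 and mitosis.

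Gated cells were found on each of the 7 plates. Their share of a plate was 10.8% at the lowest (TMM5, 7 of 65 cells), 17.1% at the median and 21.9% at the highest (TMM-2, 16 of 73 cells). The exact Clopper-Pearson 95% intervals of those extreme plates, 4.44% to 20.9% and 13.1% to 33.1%, overlapped. They cover the counting of cells only. Over all plates the share was 16.3% (95% interval 13.1% to 19.9%). In the ATML1p line the same rule found 5 of 143 cells, or 3.5% (1.14% to 7.97%), from 2 of its 5 plates, and CDC6 and CYCA3;1 were below 1 in every ATML1p cell. The lines were on separate plates, so line and plate cannot be told apart.

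PCNA2, a gene of the sliding clamp, was the most widely detected gate gene. It was at a TPM of at least 1 in 72 of the 78 gated cells (92.3%), while its near-identical copy PCNA1 was in 34 (43.6%); reads could have been split between the copies. The helicase subunits MCM5 and MCM3 were in 46 and 39 cells. CDC6, the loader of the ring, was in 12 cells, and CYCA3;1, an S phase cyclin, in 9. PCNA2 with MCM5 was the pair seen in most cells (43), followed by PCNA2 with MCM3 (38) and PCNA1 with PCNA2 (30). These values chose the cells and are given as a description.

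The gate had a clear lower edge in TPM. None of the 8 genes had a value between 0 and 1 in any TMMp cell, so a TPM below 1 meant a listed 0, which can also be a failed capture. The lowest values that counted were 1.53 TPM for MCM5, 2.13 for MCM3 and 2.53 for CYCA3;1. Among detecting gated cells the median was 234 TPM for PCNA2, 237 for PCNA1, 186 for MCM5 and 182 for MCM3. Plate means of PCNA2 in gated cells ran from 211 to 281 TPM, and those of MCM5 from 30.5 to 225. CYCA3;1 and CDC6 were listed at 0 in the gated cells of at least 1 plate.

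**Figure D1:**
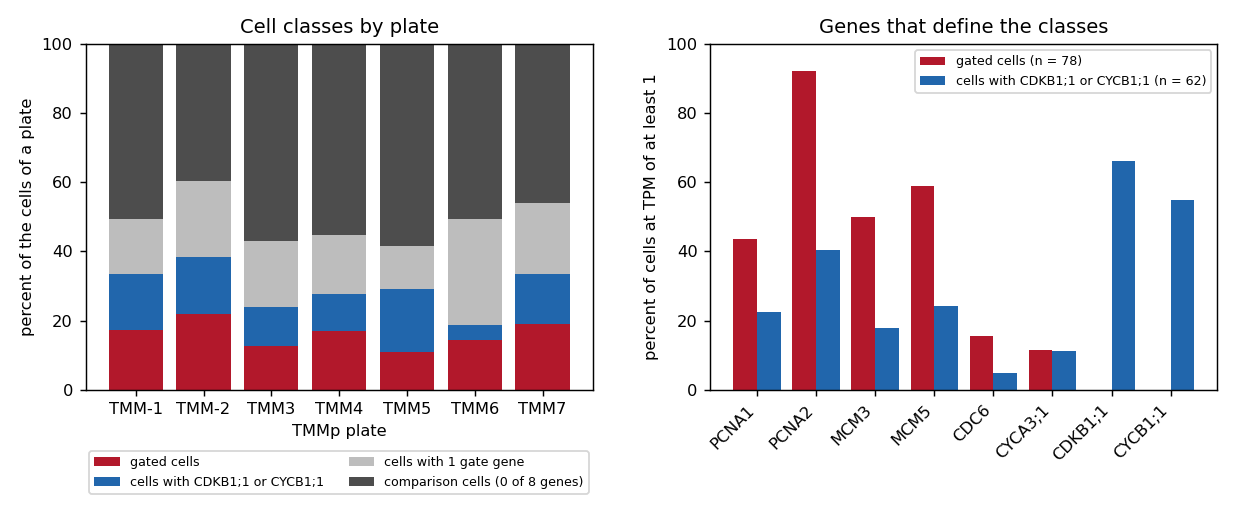
Left, the share of each TMMp plate's cells in 4 classes; right, the percent of the 78 gated cells and of the 62 cells with CDKB1;1 or CYCB1;1 that had each class-defining gene at a TPM of at least 1. Gated cells made up 10.8% to 21.9% of a plate, and PCNA2 was in 92.3% of them.

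The number of gate genes separated cells within the gate. Exactly 2 were found in 40 cells, 3 in 24, 4 in 11, 5 in 2 and 6 in 1. At least 1 of MCM2, MCM4, MCM6 and MCM7, subunits of the same ring that the rule did not use, was in 8.61% of comparison cells and 31.9% of the 94 cells with 1 gate gene. The share was 62.5% of cells with 2 gate genes, 95.8% with 3 and 100% of the 14 with 4 to 6. The median number of genes detected per cell was 2337, 3049, 3027, 3984.5 and 4629.5 in the same classes.

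Gated cells also differed from comparison cells in how many genes were detected. The plate medians of genes per cell were 2406 to 4008 in gated cells and 2179 to 2617 in comparison cells, higher in gated cells on all 7 plates. A rule that asks for detected genes favours such cells, so this difference is a description. TPM keep no read depth, and more RNA per cell cannot be told apart from better capture. Each comparison below was repeated in cells with 2000 to 6000 genes, which kept 71 gated and 161 comparison cells. Transcripts encoded in the organelles were at a median of 5.93% of TPM in gated and 5.25% in comparison cells.

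Outside the 8 genes of the rule, the 12028 genes detected in at least 5% of the pooled cells of both classes were tested. The test was limma on within-plate differences of log2(mean TPM + 1), adjusted by Benjamini-Hochberg and called below 0.05, and differences below are on that scale. A plate mean rises with more detecting cells as well as with more transcript per cell, and these cannot be told apart in it. Where a class is at or near 0, the size of a difference also depends on the pseudocount, the 1 TPM added to the mean. In gated cells 352 genes were higher and 287 lower. So 5.31% of the genes tested were called, 2.93% in the higher and 2.39% in the lower direction. An unadjusted p under 0.05 in limma was found for 2306. Of the genes tested, 10885 were in at least 5% of comparison cells, with 295 of the higher and all 287 lower calls. The other higher calls passed the filter through the gated cells, where they are high. The median difference over all genes tested was -0.07. With cells of 2000 to 6000 genes the counts were 191 and 157, and 311 of the 639 called genes were called again with the same sign. Without plate TMM-2 the counts were 214 and 175, and without TMM4 they were 229 and 154. Pool 2 alone gave 128 and 116 calls, while pool 1 alone, with its 2 plates, gave 1 and 0.

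Several genes of the replicative helicase and its loaders were higher in gated cells. Of 21 genes of origin licensing and the helicase, 13 were tested, 9 were higher and none was lower, with a median difference of 4.06. Only 3 of those 13 reached 5% of comparison cells, so the others passed the filter through the gated cells, where they are high. The list was chosen with earlier results of these data known. MCM2 was at 41.0, 64.4 and 97.6 TPM on the lowest, median and highest plate of gated cells, and at 0, 0 and 9.41 TPM in comparison cells. The plates of the classes did not overlap, as for 1.83% of all genes tested (1.32% with gated cells higher and 0.507% with gated cells lower), and the difference was 5.51 ± 0.80 (SE, 7 plates, limma adjusted p = 0.000967). Its transcript was found in 37 gated cells and 2 comparison cells.

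Of the ring subunits outside the rule, MCM4, MCM6 and MCM7 were also called. MCM7 was at 48.2, 170 and 341 TPM in gated and 0, 6.94 and 47.9 TPM in comparison cells, and MCM4 at 21.4, 84.5 and 182 against 0, 0.0755 and 12.6. Neither overlapped between the classes, and they rose by 4.61 ± 0.66 and 4.95 ± 0.73. MCM6 was listed at 0 in the gated cells of 1 plate and rose by 4.34 ± 0.88, higher on 6 of 7 plates. ORC3, a subunit of the origin recognition complex, was in 24 gated cells and 1 comparison cell and rose by 5.03 ± 0.74. ORC4 rose by 3.16 ± 0.79, though it was already in 35 comparison cells, and lost its call without TMM3, TMM4 or TMM7 (adjusted p up to 0.105 in limma).

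Of the partners that act on the loaded ring, ETG1, PSF2 and SLD5 were called. ETG1, an MCM-binding protein, was at 44.0 to 106 TPM in gated and 0 to 9.23 TPM in comparison cells and rose by 4.66 ± 0.78. The GINS subunits PSF2 and SLD5, which help turn the ring into a running helicase, rose by 4.06 ± 0.83 and 3.56 ± 0.75, though SLD5 lost its call without TMM4 (limma adjusted p = 0.0502). ETG1 was not called in cells with 2000 to 6000 genes (3.64, limma adjusted p = 0.079). PSF1, another GINS subunit, differed by 2.27 ± 0.76 (limma adjusted p = 0.0981), and the licensing factor CDT1A by 2.17 ± 0.82 (0.147), so neither was called. ORC1A, the large origin recognition subunit, was at 4.07 to 22.5 TPM in gated and 4.74 to 9.90 TPM in comparison cells, a difference of 0.48 ± 0.75 that was not called.

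At the replication fork, the list of 22 genes had 20 tested, 9 higher and none lower, with a median of 1.94. Of the 20, 13 reached 5% of comparison cells and 4 of those were higher, while the other 5 calls passed the filter through the gated cells, where they are high. In cells with 2000 to 6000 genes 4 of the list were higher. Polymerase alpha and primase start each new strand. POLA4 (AT5G41880), annotated as a DNA primase, was at 11.1, 44.5 and 108 TPM in gated cells and at 0, 0 and 0.0735 TPM in comparison cells, and rose by 5.54 ± 0.74 (limma adjusted p = 0.000826). EMB2813, the large primase subunit, was at 80.8 to 194 TPM against 0 to 74.1 TPM, with no overlap, and rose by 5.47 ± 0.77. POLA2 rose by 4.41 ± 0.75 and the catalytic subunit POLA1 by 3.31 ± 0.78. EMB2813 was outside the fixed lists and entered by the size of its rise. It was in 39 gated and 9 comparison cells (3.69%), so it passed the filter through the gated cells, where it is high.

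Polymerase delta and its helpers were less uniform. The accessory subunits POLD2 and POLD3 rose by 3.08 ± 0.68 and 3.13 ± 0.84, while the catalytic subunit POLD1 differed by 2.89 ± 0.91 and missed the threshold (limma adjusted p = 0.0799). The clamp loader subunits RFC4 and RFC5 rose by 1.79 ± 0.45 and 1.99 ± 0.53, whereas RFC1, RFC2 and RFC3 were not called, at -0.20, 1.05 and 1.03. FEN1, the flap nuclease that trims Okazaki fragments, was at 28.3 to 120 TPM against 4.96 to 25.7 TPM and rose by 2.26 ± 0.48. LIG1, the ligase that joins them, was in 37 gated and 21 comparison cells but differed by 1.97 ± 0.91 (limma adjusted p = 0.246). RPA70B, a subunit of the single-strand binding protein, rose by 2.62 ± 0.72, and RPA70C was not called at -0.41. The call of POLD3 was lost without any 1 of 6 plates, and those of POLA1, RFC4 and RFC5 without any 1 of 5 (limma adjusted p up to 0.137, for POLD3). RPA70B was tested in 5 removals of a plate and lost its call in each (limma adjusted p from 0.0643 to 0.1). In cells with 2000 to 6000 genes FEN1 (limma adjusted p = 0.0595), RFC4, RFC5, POLD3 and RPA70B were not called (up to 0.201, for RFC5).

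One gene of nucleotide supply was called. RNR1, the large subunit of ribonucleotide reductase, was at 83.3, 136 and 275 TPM in gated and 7.68, 21.2 and 34.5 TPM in comparison cells. The plates did not overlap, and it rose by 3.25 ± 0.40 (limma adjusted p = 0.000785). Its partner TSO2, the small subunit, did not overlap either, at 19.9 to 69.1 against 1.3 to 15.4 TPM, yet missed the threshold with 2.18 ± 0.67 (0.0715). The thymidylate synthase gene THY-2 differed by 2.05 ± 0.65 (0.0799) and THY-1 by -1.04 ± 0.91. The list of 8 genes had a median of 0.61.

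**Figure D2:**
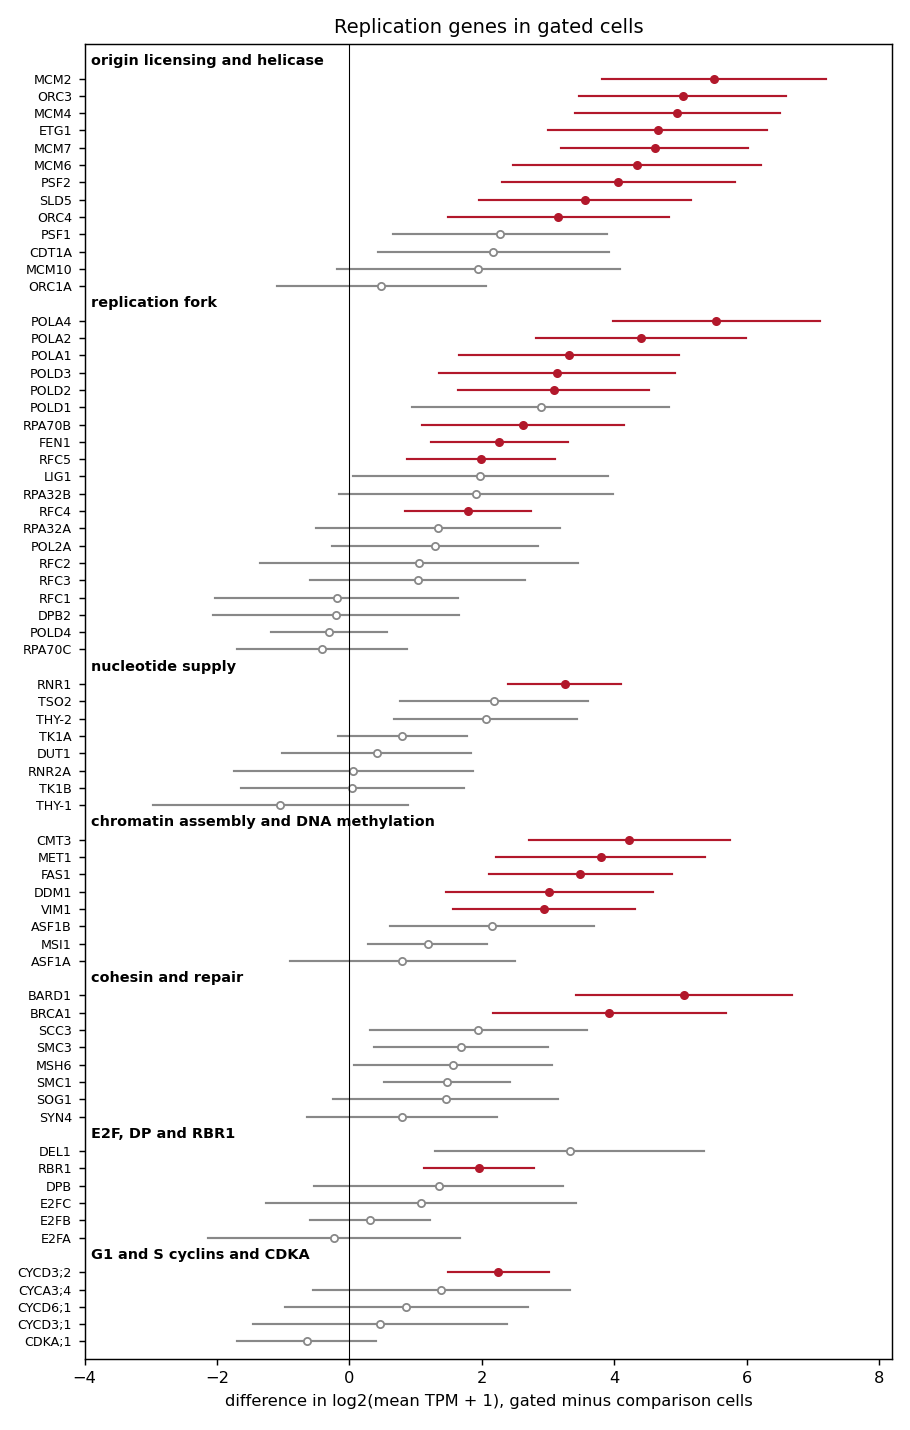
Difference in log2(mean TPM + 1) between gated and comparison cells for tested genes of 7 lists (x axis), 1 gene left out, with 95% limma intervals over 7 plates; filled points were called and open points were not. MCM2 and POLA4 lie furthest to the right, at 5.51 and 5.54, and no called gene lies below 0. Both were at 0 in comparison cells on 6 plates, so these sizes depend on the 1 TPM added. With 10 added they were 2.75 and 2.53, below MCM7 at 3.22, and with 0.1 added they were 8.32 and 8.72.

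Chromatin and its DNA methylation are copied behind the fork. Of 8 tested genes of chromatin assembly and DNA methylation, 5 were higher and none lower, with a median of 2.98. Of the 8, 4 reached 5% of comparison cells and 2 of those, CMT3 and VIM1, were higher; the other 3 calls passed the filter through the gated cells. CMT3, the plant-specific CHG methyltransferase, was at 38.4, 129 and 195 TPM in gated and 0, 6.14 and 19.6 TPM in comparison cells, and rose by 4.23 ± 0.72. MET1, the maintenance CG methyltransferase, was at 20.0 to 63.4 TPM against 0.0170 to 13.3 TPM and rose by 3.80 ± 0.74. VIM1, which binds hemimethylated DNA, and DDM1, a nucleosome remodeler, rose by 2.94 ± 0.65 and 3.02 ± 0.74, and FAS1, a subunit of chromatin assembly factor 1, by 3.49 ± 0.65. The plates of the classes did not overlap for any of these 5 genes. DDM1 lost its call without TMM-2, TMM4 or TMM6 (limma adjusted p up to 0.0917), and VIM1 was not called in cells with 2000 to 6000 genes (0.064). The histone chaperone gene ASF1B differed by 2.15 ± 0.72 and MSI1 by 1.18 ± 0.42, neither called.

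Among core histone genes few were called. Of 28 listed, 23 were tested, 4 were higher and none lower, with a median of 1.73. An H3.1 gene, AT5G10400, was at 17.4, 334 and 616 TPM in gated and 0, 8.29 and 101 TPM in comparison cells, rose by 3.91 ± 1.05, and overlapped between the classes. AT1G09200, also H3.1, and the H4 gene AT5G59690 rose by 2.37 ± 0.64 and 1.87 ± 0.41, and the H2A gene HTA10 by 1.77 ± 0.47. Another H4 gene, AT1G07660, was in 44 gated and 130 comparison cells and was not called, at -0.46 ± 0.31. None of the 4 calls held with cells of 2000 to 6000 genes, and each was lost without TMM-2 or TMM4 and, other than AT5G59690, without TMM3 or TMM5 (adjusted p up to 0.155 in limma). Histone genes share long stretches of sequence, so their single values are uncertain.

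Of 16 genes of cohesin and repair, 9 were tested, 3 were higher and none lower, with a median of 1.68. Only 4 of the 9 reached 5% of comparison cells and 0 of those were called, so all 3 calls passed the filter through the gated cells. BARD1 and BRCA1, ligase partners in recombination repair, rose by 5.05 ± 0.77 and 3.92 ± 0.83. Each was in 21 gated cells, against 3 and 2 comparison cells. The cohesin subunit SMC1 did not overlap between the classes, at 31.5 to 67.2 against 8.43 to 23.5 TPM, but its difference of 1.47 ± 0.45 missed the threshold (limma adjusted p = 0.0708). All 9 tested members of the list were above 0.

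Other genes with large rises entered by size, and those named here were each in under 5% of comparison cells, so they passed the filter through the gated cells. HMGB6, a high-mobility group protein, rose by 5.33 ± 0.78, from 0 to 4.17 TPM in comparison cells to 21.2 to 197 TPM in gated cells. CTF18, annotated as a P-loop hydrolase and known as a part of an alternative clamp loader, rose by 4.49 ± 0.68, and AT3G02820, annotated as a zinc knuckle protein, by 4.80 ± 0.77. HAG2, a histone acetyltransferase, rose by 4.42 ± 0.78. None of these 4 overlapped between the classes.

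Of the 6 tested genes of E2F, its partners and RBR1, 1 was called. RBR1, the retinoblastoma-related brake on E2F, was at 59.5, 94.7 and 132 TPM in gated and 13.5, 28.3 and 40.4 TPM in comparison cells, and rose by 1.95 ± 0.39 (limma adjusted p = 0.00746). The activators E2FA and E2FB differed by -0.23 ± 0.90 and 0.31 ± 0.43, and the atypical repressor DEL1 by 3.33 ± 0.96 (0.0544), none called. Among G1 and S cyclins, CYCD3;2 was at 94.5, 164 and 313 TPM against 11.5, 31.2 and 69.4 TPM, without overlap, and rose by 2.25 ± 0.36 (0.00174). CYCD3;1, a close relative, was in 17 gated and 18 comparison cells and differed by 0.46 ± 0.90. CDKA;1, the kinase that such cyclins bind, differed by -0.65 ± 0.50, not called.

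Of 16 CDK inhibitors and endocycle switches, 8 were tested and 2 were lower. CCS52B, an activator of the anaphase-promoting complex, was at 0 to 43.8 TPM in gated and 21.2 to 96.6 TPM in comparison cells. It fell by 3.87 on the log2 scale (SE 0.77, limma adjusted p = 0.00718). CCS52B was in 10.3% of gated and 13.9% of comparison cells. With log2 values averaged over cells it was not called (-0.54, limma adjusted p = 0.167). SMR1, a SIAMESE-related CDK inhibitor, was in 1 gated cell and 16 comparison cells and fell by 3.03 (SE 0.55). It passed the filter through the comparison cells, where it is high. SMR1 was not called with cells of 2000 to 6000 genes (-2.25, limma adjusted p = 0.0947). Of 34 listed genes of G2 and mitosis, 5 passed the filter in these classes, and 12 were in no gated cell, CYCB1;4, AUR2, PLE and HIK among them. Those 5 had a median of -0.49 and no call. CYCA2;3, the most widely detected of them, had a plate median of 84.3 TPM in gated and 45.2 TPM in comparison cells.

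**Figure D3:**
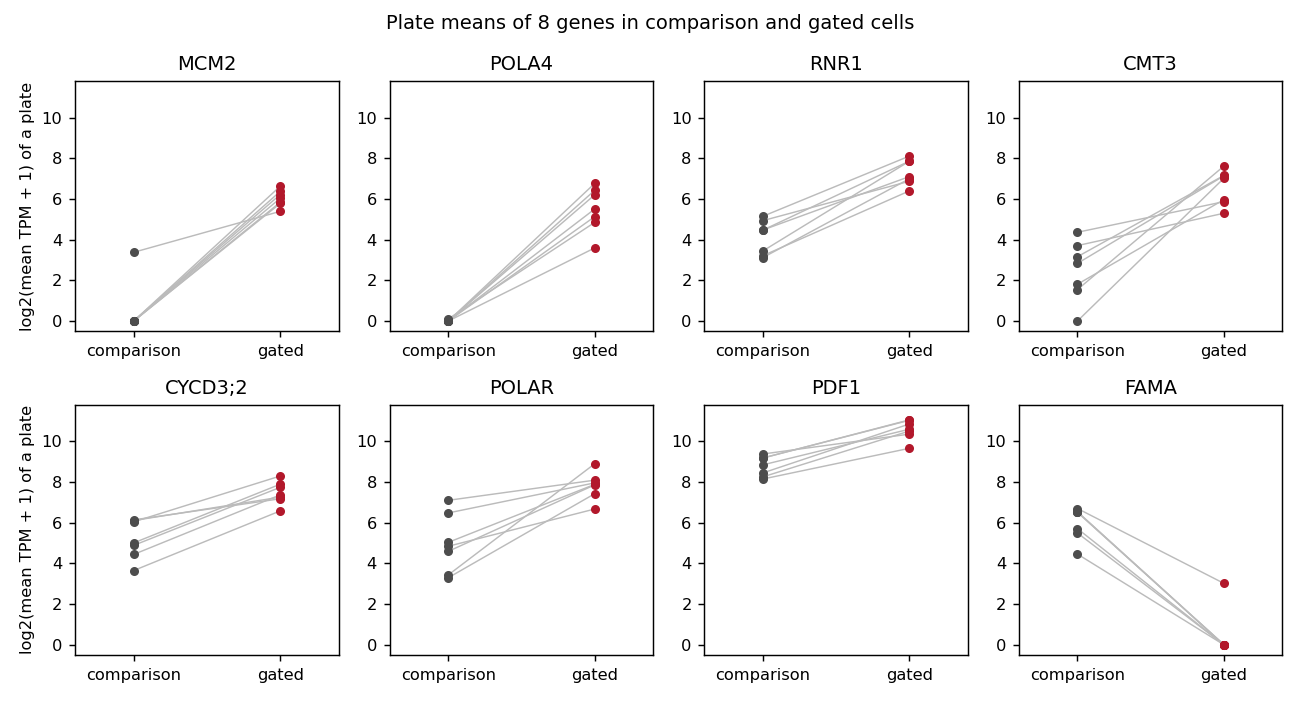
Plate means of 8 genes in comparison cells (dark grey) and gated cells (red), as log2(mean TPM + 1), with a line for each of the 7 plates. MCM2, POLA4, RNR1, CMT3, CYCD3;2 and PDF1 do not overlap between the classes and are higher in gated cells, POLAR overlaps, and FAMA is lower in gated cells on all 7 plates.

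The bases before these genes were read because E2F factors are known to bind the letters TTTCCCGC, TTTCGCGC, TTTGCCGC and TTTGGCGC. Both strands of the 250 bases before the RefSeq gene start (TAIR10.1) were searched. Of 27 called genes from the licensing, fork, nucleotide, chromatin and repair lists, 10 held at least 1 such run (37%), against 2 of the 31 tested but not called (6.45%). The share was 1.41% of all 27443 protein-coding genes and 1.5% of the 11300 tested genes read. Of the 6 gate genes, MCM3 and MCM5 held one. The windows below show the match nearest the gene start with its surroundings, 5′ to 3′ on the strand of the gene, with the matching letters in capitals. Some are in the reverse orientation, and in POLA1 the capitals at the left edge are the end of a second match. FAS1 held a second match 128 bases before its start, outside the window shown.
MCM2, chr1:16970184-16970213, plus strand: caaattggcgccaataTTTCCCGCctaatc
MCM3, chr5:18773853-18773892, minus strand: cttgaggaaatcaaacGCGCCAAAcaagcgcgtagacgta
MCM4, chr2:7130741-7130780, minus strand: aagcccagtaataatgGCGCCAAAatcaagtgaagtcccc
MCM5, chr2:3527501-3527535, minus strand: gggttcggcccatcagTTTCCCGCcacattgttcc
MCM6, chr5:18010690-18010729, minus strand: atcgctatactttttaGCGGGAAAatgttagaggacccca
ORC3, chr5:5474300-5474339, plus strand: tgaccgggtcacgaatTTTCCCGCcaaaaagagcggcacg
PSF2, chr3:3974443-3974482, minus strand: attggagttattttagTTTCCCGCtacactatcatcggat
POLA1, chr5:26776886-26776925, plus strand: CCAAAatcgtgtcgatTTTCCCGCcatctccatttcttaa
POLA4, chr5:16760801-16760840, plus strand: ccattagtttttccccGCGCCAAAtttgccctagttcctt
FEN1, chr5:9315551-9315583, minus strand: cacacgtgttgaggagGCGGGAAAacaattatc
RPA70B, chr5:2571894-2571933, plus strand: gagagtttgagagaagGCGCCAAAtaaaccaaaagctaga
FAS1, chr1:24324135-24324174, minus strand: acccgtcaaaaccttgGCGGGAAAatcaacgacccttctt
In these genes the match nearest the gene start lay 14 bases (MCM2) to 170 bases (MCM3) before it. Called genes without a match, such as MCM7, ETG1, RNR1 and CMT3, lack only these letters in this window. A match is a description of the sequence and was not tested against the expression values.

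Ribosomal protein transcripts were higher. Of 352 genes whose RefSeq product names a ribosomal protein, a list chosen after values were seen, 297 were tested, 142 were higher and none was lower. Their summed plate means were 41114, 82190 and 96198 TPM in gated cells and 22905, 28822 and 38517 TPM in comparison cells, with no overlap. The called members rose by 0.91 to 2.78, with a median of 1.44, and 115 of the 142 were higher on all 7 plates. AT5G20290, annotated as a ribosomal protein, was at 1031, 1447 and 1990 TPM against 341, 640 and 850 TPM. RPS13A, a small-subunit protein, was at 520, 1073 and 1274 TPM against 236, 310 and 486 TPM and rose by 1.52 ± 0.20. Many ribosomal proteins have near-identical copies, so values of single copies are uncertain. With cells of 2000 to 6000 genes, 94 of these genes were higher and the median went from 1.23 to 1.03.

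Ribosomes are assembled in the nucleolus. Of 11 tested nucleolar genes, 7 were higher and none lower, with a median of 2.25. FIB1, the fibrillarin that methylates ribosomal RNA, was at 408, 551 and 806 TPM in gated and 140, 266 and 328 TPM in comparison cells, without overlap. It rose by 1.25 ± 0.24 (limma adjusted p = 0.00614). NOP5-1 and NOP5-2, core proteins of small nucleolar particles, rose by 2.32 ± 0.38 and 2.46 ± 0.41, NOP56 by 2.27 ± 0.45, and the nucleolin NUC1 by 1.34 ± 0.30. EBP1, a growth regulator, rose by 2.25 ± 0.47 and CBF5, the pseudouridine synthase, by 2.66 ± 0.71; without any 1 of 6 plates CBF5 lost its call (adjusted p up to 0.0973 in limma). In cells with 2000 to 6000 genes 5 of the list were higher, without EBP1 (limma adjusted p = 0.0649) and CBF5 (0.0946). Against cells with CDKB1;1 or CYCB1;1, described further on, 0 of 310 tested ribosomal protein genes and 0 of 12 nucleolar genes were called by limma, with medians of -0.02 and 0.31.

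The called ribosomal genes carried another sequence. The letters TGGGCC or TGGGCT, known as site II and bound by TCP factors, were found on either strand before 73.2% of the 142 called ribosomal protein genes and 49.7% of the 155 not called. They were before 47% of the other called genes that were higher, 16.8% of the genes that were lower, 25.8% of all genes tested and 19.2% of all protein-coding genes. The telo-box AAACCCTAA was before 7.04% of the called ribosomal genes, 5.81% of those not called and 2.61% of all protein-coding genes.

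The ribosomal sum is given by the number of gate genes as a description, with no test. The median of summed ribosomal protein TPM over cells was 16939 in comparison cells and 32472 in cells with 1 gate gene. It was 35381 in gated cells with 2 gate genes, 79732 with 3 and 108810 with 4 to 6. Summed histone TPM had no such order, with medians of 451, 484, 631, 818 and 633. Over the same classes the median heat and wounding sum was 18464, 14094, 14438, 8874 and 7085 TPM, beside the genes per cell given above, and their part in the ribosomal values was not tested.

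TMM, the receptor whose promoter marks the line, was in 74 of 78 gated cells and 208 of 244 comparison cells. The transgene carries TMM as well, so all TMM values given here may include its transcripts. Shares of cells with 12 stage genes were compared over plates with a two-sided exact sign-flip test, whose smallest possible p with 7 plates is 0.0156, and adjusted over the 12 genes. Of these, 7 were in more gated cells and 1, FAMA, in fewer, while 5 passed in cells with 2000 to 6000 genes (FAMA, POLAR, HDG2, PDF1 and ATML1). With 6 plates the smallest p is 0.0312, and without TMM-1, TMM-2, TMM3, TMM4 or TMM6 none of the 12 passed. POLAR, a polarity protein of asymmetrically dividing cells, was in 28.6%, 50% and 66.7% of gated cells on the lowest, median and highest plate and in 3.45%, 14.3% and 27.6% of comparison cells. It was higher on 7 of 7 plates (mean difference 36.9 percentage points ± 15.7 SD, exact permutation adjusted p = 0.0268). SPCH, the factor that starts the lineage, was in 23.1% against 8.64% as means over plates and higher on all 7 plates (exact permutation adjusted p = 0.0268). BASL, the polarity scaffold, was in 12.5% against 2.96%, also on 7 plates (same adjusted p). SOL1, a CXC regulator of stage transitions, was higher on 6 of 7 plates, in 41.2% against 15.8% (exact permutation adjusted p = 0.0469).

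FAMA went the other way. This factor, which drives guard cell identity, was in 1 of 78 gated cells and 30 of 244 comparison cells, and lower in gated cells on 7 of 7 plates (mean difference -11.3 percentage points, exact permutation adjusted p = 0.0268). In plate means it was at 0 to 7.10 TPM against 21.0 to 103 TPM and fell by 5.53 on the log2 scale (SE 0.75, limma adjusted p = 0.000931), without overlap. FAMA passed the filter of that fit through the comparison cells, where it is high. MUTE, which acts between SPCH and FAMA, was in 17.4% of gated and 1.99% of comparison cells, higher on 5 plates and lower on 2, and was not called (exact permutation adjusted p = 0.075). The peptide gene EPF1 differed by 4.95 percentage points and MYB60, a guard cell factor, by 4.30, neither called. Of 15 guard cell genes, 7 were tested, FAMA was lower and none was higher, with a median of -0.59 and 2 above 0, and 4 were in no gated cell. Their summed plate means were 155 to 492 TPM in gated and 298 to 1287 TPM in comparison cells. SCAP1, KAT1 and KAT2 were each in 1 gated cell, against 5, 7 and 3 comparison cells.

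The stages overlapped within the gate. Of 78 gated cells, 15 held both SPCH and POLAR, 6 both SPCH and MUTE, and 9 both POLAR and MUTE. At least 1 of SPCH, MUTE, POLAR and FAMA was in 50 cells (64.1%), and 28 had none of the 4. SPCH without MUTE or FAMA was in 13 gated cells, and MUTE or EPF1 in 17. SPCH was in 12.5% of cells with 2 gate genes, 25% with 3 and 57.1% with 4 to 6, and POLAR in 37.5%, 62.5% and 78.6%. MUTE was in 17.5%, 20.8% and 21.4%. The last class held 14 cells. Genes detected per cell rose over the same classes, with medians of 3027, 3984.5 and 4629.5, and their part in these shares was not tested.

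In transcript levels, 4 of 19 early lineage genes were higher, all 19 were tested and none was lower, with a median of 1.26. POLAR rose by 2.97 ± 0.48, from 8.81, 27.7 and 136 TPM to 101, 235 and 476 TPM. EPF2, a peptide of early lineage cells, rose by 3.07 ± 0.58, SCRM2, a bHLH partner of SPCH, by 2.22 ± 0.52, and SOL1 by 1.5 ± 0.39. TMM differed by 0.73 ± 0.21 (limma adjusted p = 0.0613), at 881 to 2132 against 587 to 951 TPM. SCRM2 lost its call without TMM-1 or TMM-2, and SOL1 without any of 4 plates (adjusted p up to 0.1). With cells of 2000 to 6000 genes, POLAR and EPF2 kept theirs, at 2.61 and 2.56.

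PDF1, a protodermal marker, was at 806, 1547 and 2126 TPM in gated and 282, 459 and 664 TPM in comparison cells, without overlap, and rose by 1.85 ± 0.20 (limma adjusted p = 0.000785). It was in 81.6% of gated and 42.1% of comparison cells as means over plates. The homeodomain genes HDG2 (75.1% against 39.1%) and ATML1 (47.4% against 22.4%) were also in more gated cells, each on 7 of 7 plates (exact permutation adjusted p = 0.0268 for all 3). PDF1 was the only call among 14 tested epidermis and cuticle genes, whose median was -0.25. The wax genes KCS1, KCS6 and CER3 were not called, at -0.63, -0.65 and -1.20.

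**Figure D4:**
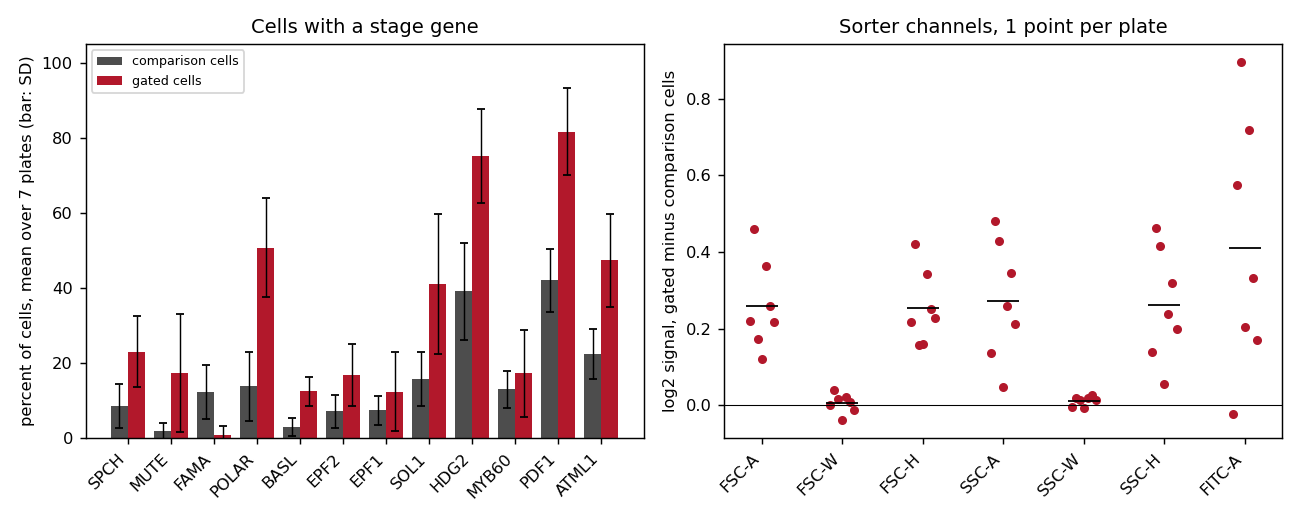
Left, mean percent of cells with each of 12 stage genes over 7 plates (bar: SD) in comparison and gated cells; right, within-plate differences of 7 sorter channels, 1 point per plate and a line at the mean. FAMA is the only stage gene whose mean is lower in gated cells (0.893% against 12.2%), and forward and side scatter areas are above 0 on all plates.

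Markers of other tissues gave 1 call. Of 22 photosynthesis genes 20 were tested and 1 was lower, RBCS2B, a Rubisco small subunit, at 107 to 211 TPM against 233 to 598 TPM (-1.34 ± 0.27). RBCS2B was not called with log2 values averaged over cells (-0.97, limma adjusted p = 0.105). Its copy RBCS1A differed by -0.01 ± 0.26, so split reads are possible. The summed plate means of the list were 3025 to 6279 TPM in gated and 2932 to 8312 TPM in comparison cells. The defining trichome genes were at or near 0, with GL2 in no cell of either class and GL1 in 1 gated cell. No vasculature gene was tested; the phloem gene SUC2 was in 8 gated and 5 comparison cells, and APL in none.

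Of 13 tested genes of heat and wounding, 3 were lower and none higher. HSP101, a disaggregase, was at 279, 985 and 1657 TPM in gated and 1286, 1918 and 2575 TPM in comparison cells and fell by 1.08 on the log2 scale (SE 0.21, limma adjusted p = 0.00709). HSP17.6II and HSP90.1 fell by 1.39 and 1.17, but HSP17.6II lost its call without TMM4 and HSP90.1 without TMM-2, TMM3 or TMM4 (adjusted p up to 0.0794 in limma) and in cells with 2000 to 6000 genes (0.11). Summed over the list, plate means were 9687 to 24672 TPM in gated and 16568 to 28595 TPM in comparison cells. These levels moved with the classes, and their part in the other differences was not tested.

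Other genes with the largest falls came from several annotated families. GH9B1, an endoglucanase, was at 0, 0 and 19.2 TPM in gated and 63.8, 110 and 359 TPM in comparison cells and fell by 5.41 (SE 0.71). AT4G20860, a berberine-bridge type oxidase, was at 0 to 2.68 TPM against 38.8 to 141 TPM and fell by 5.93 (SE 0.72, limma adjusted p = 0.000785). AT5G14920, of the gibberellin-regulated peptide family, and AT2G39690, of unknown function, fell by 5.03 (SE 0.73) and 5.88 (SE 0.76). AT1G26380, a second oxidase of the berberine family, was in 19 comparison cells and in no gated cell. HSP21, a small heat shock protein of the chloroplast, was in 2 gated and 15 comparison cells and fell by 5.14 (SE 0.86). Its plates overlapped between the classes, with TMM3 in the other direction, and it was not called with log2 values averaged over cells (limma adjusted p = 0.184). AT2G15830, AT5G05600, AT5G22145, AT1G72600 and GER1 completed the 12 largest falls, between -4.70 and -5.30, each with overlapping plates. AT5G22145 lost its call without TMM3, TMM4, TMM5 or TMM6 (limma adjusted p up to 0.0651). AT1G72600 and GER1 were not called with log2 values averaged over cells (limma adjusted p = 0.0898 and 0.103). GER1 is AT1G72610, the next locus number after AT1G72600. Comparison plate means of both genes had the same order over plates, and whether they are separate signals was not tested. AT2G39690, AT2G15830, HSP21, AT5G14920, AT1G26380 and AT5G22145 were each in under 5% of gated cells. Those genes passed the filter through the comparison cells, where they are high.

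Log2 values averaged over cells, in place of mean TPM, gave other counts. The median over all genes went from -0.07 to 0.35, with 2490 genes higher and 223 lower. On that scale, against the 0.35 of all genes, the licensing list had a median of 1.94, the nucleolar list 2.80 and ribosomal proteins 2.45. Photosynthesis, epidermis and guard cell lists changed the sign of their medians, from -0.06, -0.25 and -0.59 to 1.61, 0.87 and 0.31.

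The sorter's scatter signals were higher in gated cells. Forward scatter area, which goes with particle size, was 16.7 to 16.8 on the log2 scale as plate means of gated cells and 16.4 to 16.6 in comparison cells, without overlap. The within-plate difference was 0.26 ± 0.12 (SD), above 0 on 7 of 7 plates (exact permutation adjusted p = 0.0273 over 7 channels). Side scatter area, which goes with internal structure, differed by 0.27 ± 0.16, also on 7 plates (same exact permutation adjusted p). The reporter channel FITC-A differed by 0.41 ± 0.33, above 0 on 6 of 7 plates (exact permutation adjusted p = 0.0438). The heights of both scatter signals followed their areas, and the widths were not called. With cells of 2000 to 6000 genes no channel passed the threshold, and forward scatter differed by 0.16 ± 0.15, on 6 of 7 plates (exact permutation adjusted p = 0.109). No channel passed without TMM-2 or any plate of pool 2. With 6 plates the smallest possible p of this sign-flip test is 0.0312, and adjustment over 7 channels can lift even that above the threshold. These losses therefore cannot show whether the scatter differences depended on those plates.

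Gated cells were also set against the 62 TMMp cells with CDKB1;1 or CYCB1;1, the nearest class by cell cycle genes. They are called mitotic-gene cells here by these 2 genes only, and their phase was not measured. Of those cells, 31 held none of the gate genes, 12 held 1 and 19 held at least 2. They had a median of 4325.5 genes per cell, more than gated cells. Of 14790 genes tested, 14 were higher and 130 lower in gated cells, so 0.974% were called (0.0947% higher and 0.879% lower). Among those tested, 14048 were in at least 5% of mitotic-gene cells, with 9 of the higher and all 130 lower calls. The other higher calls passed the filter through the gated cells. Plate means of the classes did not overlap for 0.0541% of the genes with gated cells higher and 0.92% with gated cells lower. In cells with 2000 to 6000 genes the counts were 2 and 5, and each of those 7 was a call of the whole comparison. Leaving out single plates gave 2 to 15 higher and 49 to 105 lower genes, with the lowest counts without TMM-1, and each pool alone gave 0 higher and 4 lower.

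Many genes of G2 and mitosis were lower in gated cells, whose comparison class here was chosen by 2 genes of that kind. Of 30 tested, 17 were lower and none higher, with a median of -4.63 against -0.16 over all genes. CDKB2;1, a B-type kinase, was at 0 to 0.766 TPM in gated and 0, 389 and 1088 TPM in the mitotic-gene cells and fell by 7.09 (SE 1.15). The kinase AUR1 fell by 6.17 (SE 0.75), the cyclin CYCB1;2 by 6.22 (SE 0.88), and the phragmoplast genes PLE and HIK, in no gated cell, by 6.10 (SE 0.85) and 5.62 (SE 0.84). KN, the syntaxin of the cell plate, fell by 5.4 (SE 0.94), and its call was lost without TMM-1 or TMM-2. All 30 were in at least 5% of the mitotic-gene cells, and members in no gated cell, such as PLE and HIK, were testable only through the class where they are high. None of the 17 was called in cells with 2000 to 6000 genes, where their list had a median of -3.72. A fitted fall against a class at 0 depends on the pseudocount.

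Of 20 tested licensing genes 18 were above 0 and 1 was called, with a median of 1.84. That gene, ORC2, an origin recognition subunit, was at 8.10, 26.1 and 48.7 TPM in gated and 0, 0 and 6.68 TPM in mitotic-gene cells, without overlap, and rose by 4.09 ± 0.86 (limma adjusted p = 0.0306). It came from 10 gated cells and 1 mitotic-gene cell and lost its call without any 1 of 6 plates (adjusted p up to 0.122 in limma). It passed the filter through the gated cells. EMB2813 was at 80.8 to 194 TPM against 0 to 49.7 TPM and rose by 3.75 ± 0.74, a call lost without TMM-1, TMM4, TMM6 or TMM7. Neither was called in cells with 2000 to 6000 genes (limma adjusted p = 0.242 for ORC2 and 0.125 for EMB2813). MCM7 differed by 2.37 ± 0.63 (limma adjusted p = 0.0963) and RBR1 by 1.75 ± 0.48 (0.113), neither called though RBR1 did not overlap, at 59.5 to 132 against 8.00 to 48.5 TPM. Of 28 core histone genes 26 were below 0, with a median of -0.88 and no call.

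**Figure D5:**
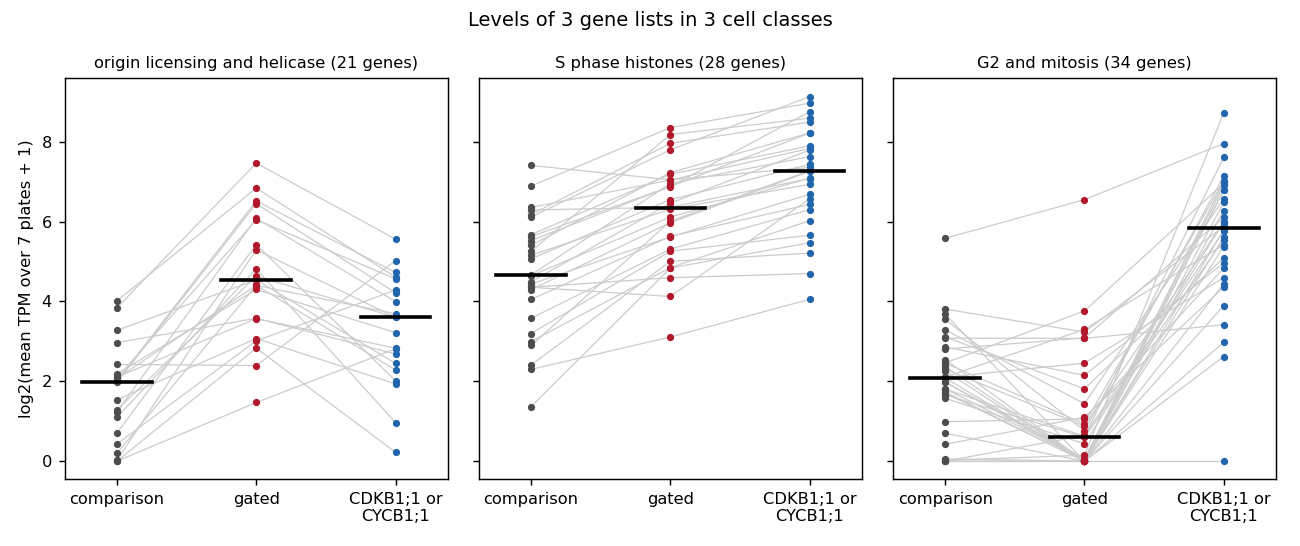
Mean over 7 plates of each listed gene, as log2(mean TPM + 1), in comparison cells, gated cells and cells with CDKB1;1 or CYCB1;1; grey lines join a gene and black bars mark the median of the list. The summed level had plate medians of 81.2, 885 and 339 TPM for licensing, 913, 2473 and 4534 for histones, and 187, 142 and 1922 for G2 and mitosis.

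FAMA was at 0 to 7.10 TPM in gated and 33.7, 261 and 494 TPM in mitotic-gene cells and fell by 7.24 (SE 0.73, limma adjusted p = 0.000257). It was in 17 of the 62 cells, and the call held in cells with 2000 to 6000 genes. Here FAMA passed the filter through the mitotic-gene cells, where it is high. SDD1, a subtilisin-like protease that limits stomatal number, was at 0 to 12.6 TPM against 0, 681 and 2416 TPM and fell by 7.28 (SE 1.23), with 1 plate in the other direction. CCS52B fell by 5.92 (SE 0.69) without overlap. SPCH, MUTE, POLAR, SCRM2 and SOL1 were not called, at -0.09, 0.97, 0.50, -0.09 and 0.00. For POLAR the share of cells differed by 0.449 percentage points ± 14.4 (SD, 7 plates; two-sided exact permutation adjusted p = 0.953). None of the 12 stage genes or 7 sorter channels passed the threshold in this comparison, though FAMA and MYB60 were in fewer gated cells on all 7 plates (exact permutation adjusted p = 0.0938 for both). Side scatter height was also lower on all 7 plates (-0.21 ± 0.18) and side scatter area on 6 of 7 (-0.24 ± 0.22), both with an exact permutation adjusted p of 0.109. Before adjustment FAMA, MYB60 and side scatter height were at the smallest p that the sign-flip test allows with 7 plates (0.0156). With so few items at that limit the adjusted test could not call them.

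Genes outside the lists were also higher than in mitotic-gene cells. AT1G09932, a phosphoglycerate mutase family gene, was at 0.608, 188 and 2535 TPM against 0, 0 and 6.91 TPM. AT3G15356, of the legume lectin family, was at 57.4 to 253 TPM against 0 to 67.6 TPM and rose by 5.66 ± 0.97. AT1G09932 and AT3G15356 were in 1 and 2 mitotic-gene cells, so they passed the filter through the gated cells, where they are high. Plates of the classes overlapped for both. ZAT11, a zinc finger factor, rose by 3.70 ± 0.76, and JAZ1, a repressor of jasmonate responses, by 1.77 ± 0.36, the only call in the heat and wounding list. ZAT11 and JAZ1 each lost the call without any 1 of 4 plates (limma adjusted p up to 0.128). AT5G16250, of unknown function, fell by 8.27 (SE 0.64), from 127 to 1398 TPM in mitotic-gene cells to at most 2.78 TPM. It was in 1 gated cell and passed the filter through the mitotic-gene cells, where it is high.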

How the data were processed

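The authors deposited TPM values of genes by cells, in a table for each reporter line; the tables are named as TPM, and the values of every TMMp cell add up to the total this unit has. The quantification program is not given in the sources used. The submitters' processing notes name Cell Ranger and TAIR10 without a role. The authors deposited 7 sorter channels as log2 values, per the file headers. TPM keep no depth, so genes at TPM of at least 1 stood in for it. Of the 32834 rows, 32548 matched the RefSeq annotation (TAIR10.1), the source of names, gene starts and sequences.

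No cell was removed and no doublet caller was run; no 2 TMMp cells had identical values, and 242 TMMp cells shared their index pair with another TMMp cell. Plate means of TPM were compared as log2(mean TPM + 1), weighted by cell numbers, within plates, which are the block because both classes shared a plate. The tools were limma 3.58.1 in R 4.3.3 and scipy 1.17.1 in Python 3.11.15. The fit was checked on simulated data. The members and 18 gene lists were chosen with earlier results of these data known. Genes named outside the lists were those past the threshold with 1 sign on at least 6 of 7 plates and at least 5 TPM in the higher class, the 12 largest rises and falls, and 8 of each against mitotic-gene cells. Alternatives covered pseudocounts of 0.1 and 10, filters, weights, a cap at percentile 99, a gate of 3 genes or TPM 10, genes per cell, organelle genes, pools as units, no block, and each pool or plate left out. The values of 1 listed gene are not reported here.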

Additional observations from a re-analysis of the deposited data

Results flagged for a closer look

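A plate stood apart from the other 6 in 5 of 63 sets of plate values that were examined. By the nominal rate of the rule, chance alone singles out about 1 in 20 such sets, a rate that was not measured in these data. The rise of MCM2 against comparison cells was 2.01 on plate TMM-1 and between 5.78 and 6.62 on the others. That of BARD1 was 2.11 on TMM-1 and between 4.84 and 6.23 elsewhere. In comparison cells MCM2 was at 9.41 TPM on TMM-1 and at 0 on the other 6 plates, and was detected in 2 cells in all. BARD1 was at 9.31 TPM in comparison cells of TMM-1 and at 0 on 4 plates, and was detected in 3 cells. Both differences therefore rest on few comparison cells and on the pseudocount. ORC3 rose by 1.87 on TMM5 and by 4.36 to 6.19 on the others. Against mitotic-gene cells, AT3G15356 differed by 0.58 on TMM-2 and by 5.87 to 7.99 elsewhere. SDD1 differed by 3.76 on TMM3, opposite in direction to the other plates, which lay between -11.2 and -5.85.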

How the results depend on the processing

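Against comparison cells, 352 genes were higher and 287 lower. Means of log2 values gave 2490 higher, a pseudocount of 0.1 gave 191 lower, and no filter on low values gave 214 higher and 110 lower. Cells with 2000 to 6000 genes gave 191 and 157, a gate of at least 3 genes gave 995 lower, values without organelle genes 187 lower, and pools as units 801 and 481. Leaving out a pool or a plate gave 1 to 386 higher and 0 to 263 lower. Against mitotic-gene cells, 14 were higher and 130 lower, with 89 and 659 from means of log2 values, 2 and 5 in cells with 2000 to 6000 genes, and 0 to 15 higher and 4 to 105 lower without a pool or plate. With no replicate block by plate the counts were 281 and 249 against comparison cells and 22 and 185 against mitotic-gene cells. Of 5 sorter channels past the threshold, 0 remained past it in cells with 2000 to 6000 genes, 0 with medians over cells and 0 to 5 without a pool or plate. Removing a pool or plate also limits what the sign-flip test can call among the channels. Of 8 stage genes past it, the count was 5 in cells with 2000 to 6000 genes, 5 with a gate of at least 3 genes and 0 to 8 without a pool or plate, where few plates limit the sign-flip test. The cause of these shifts was not tested, apart from the smaller numbers of cells, plates or genes that the settings themselves impose. No named gene, sorter channel or stage gene past the threshold changed sign under the settings run for it. Of the 68 named genes called against comparison cells, 49 kept the call in each removal of a single plate in which they were tested, 50 in cells with 2000 to 6000 genes and 1 of 67 in pool 1 alone. TPM keep no read depth, so no limit from counting could be given.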
